A study of Mus musculus with 4 samples.

Results

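The 9 genes described here belong to one signalling route and were followed through the sequencing counts of mouse osteoclast cultures treated with a p38α inhibitor. They are the NFAT transcription factor genes Nfatc1, Nfatc2, Nfatc3 and Nfat5, the calcineurin subunit genes Ppp3ca, Ppp3cb, Ppp3cc and Ppp3r1, and the calcineurin regulator gene Rcan1. They were chosen by name, as the rows whose Ensembl identifiers carry these symbols, and make up 9 of 23390 gene models in the table. All 9 had enough counts to be tested, among 13214 tested models.

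All 4 libraries came from bone marrow macrophages of wild-type C57BL/6J mice. Marrow cells were first cultured for 3 days with L929 supernatant as the source of the growth factor M-CSF, matching 20 ng/ml of the recombinant protein (L929 is a mouse fibroblast line). The macrophages were then reseeded and given 40 ng/ml RANKL, the cytokine that turns them into bone-resorbing osteoclasts, and RNA was taken at day 4. The DMSO group (2 libraries) received solvent and the BMS-582949 group (2 libraries) received 10 µM of the inhibitor, which blocks the stress-activated kinase p38α. Nothing in the labels ties the 2 libraries of a group to different mice or dishes, and p-values here therefore reflect just the spread among these 4 libraries, which may be technical. The descriptions differ on whether the compound was present for 3 or 4 days.

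Calcineurin is a phosphatase that is switched on by calcium and calmodulin. It is built from a catalytic A subunit, encoded by Ppp3ca, Ppp3cb or Ppp3cc, and a calcium-binding B subunit, encoded by Ppp3r1. Active calcineurin strips phosphates from NFATc proteins, which then enter the nucleus, and kinases reverse this step. In osteoclast precursors RANKL and co-receptors with ITAM adaptors raise intracellular calcium, and NFATc1 then drives the osteoclast genes and its own gene. Rcan1 protein binds calcineurin and restrains it, and its gene is itself induced through NFAT. NFAT5 shares the DNA-binding domain but lacks the calcineurin-binding region and responds to salt and osmotic stress.

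Library totals were 35331889 and 36178333 counts with DMSO and 37455168 to 39255925 with BMS-582949. Mitochondrially encoded genes took 6.52% and 5.85% of counts with DMSO and 3.6% and 4.07% with BMS-582949, without overlap. Of 8 osteoclast markers all were present in every library and all were called lower with BMS-582949, their summed level going from 98162 and 102284 CPM to 11910 and 12065 CPM. CPM is a gene's count relative to its library total, here with the total scaled by trimmed mean of M-values (TMM) factors. Of 6 macrophage markers 3 were higher (Adgre1, Mrc1 and Cx3cr1), 2 lower (Csf1r and Cd68) and 1 not called (Fcgr1). Their summed level went from 5522 and 5757 CPM with DMSO to 2633 and 2837 CPM with BMS-582949. The 4 proliferation markers were all higher (summed 224 to 229 CPM with DMSO, 762 to 770 CPM with the inhibitor), and the 5 stromal markers were all lower (698 to 762 against 492 to 495 CPM). Neutrophil, mast cell, B cell and dendritic cell markers each summed to at most 22.4 CPM in any library. The part of these shifts in the results below was not tested, and in whole cultures fewer cells of a type and less RNA per cell cannot be told apart.

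With BMS-582949, 4 of the 9 members were called higher (Nfatc2, Nfatc3, Nfat5 and Ppp3cb) and 3 lower (Nfatc1, Ppp3ca and Rcan1), at an edgeR quasi-likelihood adjusted p under 0.05. Among all tested genes 30.5% were called higher and 29.7% lower, 60.2% in all, so being called does not by itself set these genes apart. The DMSO and BMS-582949 values were fully separated in 8 of the 9 members, against 80.2% of all tested genes. The sizes of the changes separated the members into those that changed at least 2-fold (Nfatc1 and Rcan1 down, Nfatc2 up) and those with smaller differences. Of all tested genes 9.94% were called at least 2-fold higher and 11.3% at least 2-fold lower. With library size only in place of TMM, 6 members were called higher and 2 lower, and over all genes 6738 were called higher and 2240 lower against 4035 and 3919 with TMM. The median log2 fold change of the 9 was 0.04, against 0.03 over all tested genes.

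**Figure D1:**
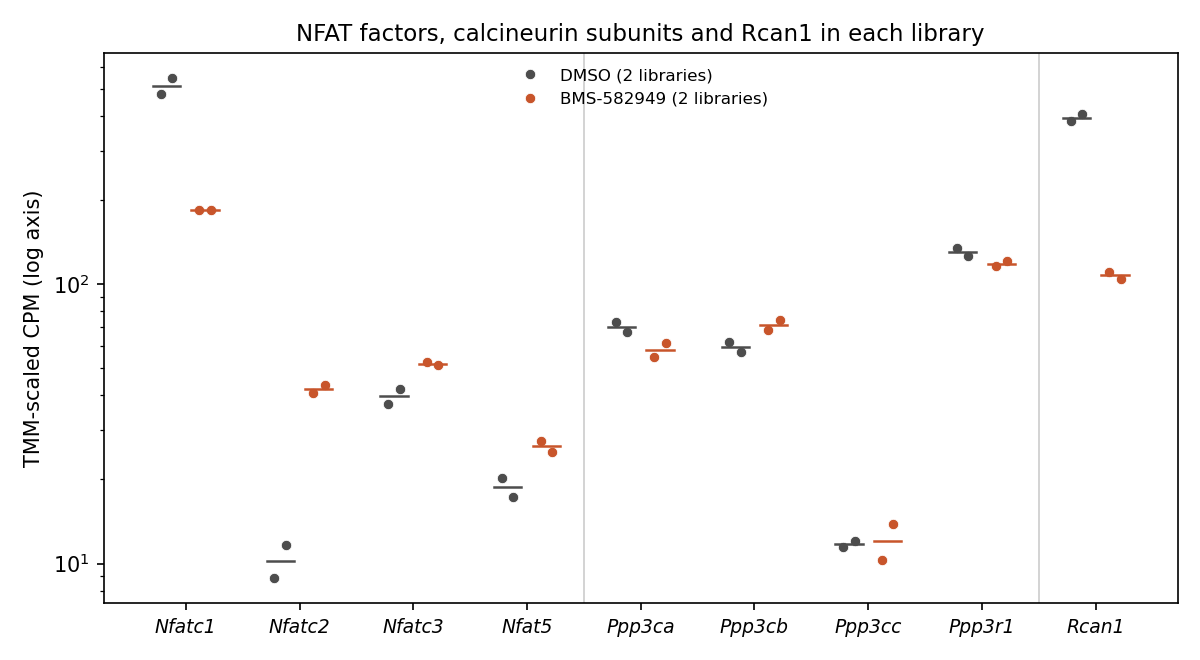
TMM-scaled CPM of the 9 members (log axis) in the 2 DMSO libraries (grey) and the 2 BMS-582949 libraries (orange); points are libraries and bars are group means. Nfatc1 and Rcan1 sit lower and Nfatc2 higher with the inhibitor, and for each calcineurin subunit the 2 groups lie close to each other.

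Nfatc1, which encodes the master transcription factor of osteoclast formation, was measured at 478 and 547 CPM in the DMSO libraries and at 184 CPM in each BMS-582949 library. Both inhibitor libraries lay below both DMSO libraries, and the DMSO libraries differed from each other more than the inhibitor libraries did. The mean was 512 ± 48.8 CPM (SD, n = 2) with DMSO and 184 ± 0.196 CPM (SD, n = 2) with BMS-582949, a 2.79-fold lower level. The log2 fold change was -1.48 ± 0.07 (SE, 95% interval -1.64 to -1.32, edgeR adjusted p = 4.22e-09). Of all tested genes 7.04% had a more negative log2 fold change. Nfatc1 (ENSMUSG00000033016) lies on chromosome 18 at 80606205 to 80713071 on the minus strand (GRCm38, GENCODE M21). The annotation gives it 7 transcripts, and the deposited counts are not split between them.

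Nfatc2 encodes the NFAT family member best known from T cells, where it is present before stimulation. Its level was 8.85 and 11.6 CPM with DMSO and 40.7 and 43.7 CPM with BMS-582949. The groups did not overlap, and the lower inhibitor library was more than 3 times the higher DMSO library. The mean rose 4.12-fold, from 10.2 ± 1.97 to 42.2 ± 2.13 CPM (SD, n = 2 each), with a log2 fold change of 2.04 ± 0.14 (SE, 95% interval 1.74 to 2.34, edgeR adjusted p = 6.93e-08). Of all tested genes 1.24% had a higher log2 fold change. The 6 T and NK cell markers summed to 0.354 and 0.507 CPM with DMSO and 0.995 and 0.614 CPM with BMS-582949, and no count of Cd3e or Cd3g, subunits of the T cell receptor complex, was recorded in any library. A count of 0 allows up to 3 counts in a library of this depth. Cd2, an adhesion receptor gene and the only one of the 6 with enough counts to be tested, was called higher, as Nfatc2 was, with 3 and 2 counts with DMSO and 36 and 22 counts with BMS-582949 (log2 fold change 2.99 ± 0.78 SE, edgeR adjusted p = 0.00517). The level of Cd2 stayed below 1 CPM in every library, yet it made up most of the marker sum with BMS-582949 (0.796 and 0.520 CPM). Lck had 8 and 10 counts with DMSO and 8 and 4 with BMS-582949. Nkg7 had 0 and 4 counts with DMSO and 0 and 0 with BMS-582949, and Cd3d had 1 count, in BMS-582949 replicate 1. The part of T and NK cells in the Nfatc2 result was not tested.

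Nfatc2 (ENSMUSG00000027544) lies on chromosome 2 at 168476410 to 168601657, minus strand, with RefSeq start sites at 168601657 and, inside the gene, at 168590365. The 250 bases before the first of these are shown because Nfatc2 had the largest rise of the 9 members. Capitals mark the core letters bound by NFAT proteins, GGAAA on either strand (TTTCC as read here). The window is chr2:168601658-168601907 (GRCm38.p6, RefSeq, minus strand, written 5′ to 3′), holds no annotated exon and contains 3 such matches.
Nfatc2, first start: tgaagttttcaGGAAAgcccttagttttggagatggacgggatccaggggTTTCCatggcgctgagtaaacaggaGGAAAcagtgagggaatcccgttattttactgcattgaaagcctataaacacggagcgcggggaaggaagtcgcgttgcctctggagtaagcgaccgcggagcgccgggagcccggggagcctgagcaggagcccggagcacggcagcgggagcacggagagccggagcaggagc
Of 32851 RefSeq windows of 250 bases before a start, 55.6% held at least 1 GGAAA and 6.39% held 3 or more. The window before the inner Nfatc2 start held 1. A match describes letters in the window and is not evidence of binding, and the counts are not split between start sites.

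Nfatc3 and Nfat5, the other NFAT genes among the members, rose modestly. Nfatc3, which encodes a calcium-regulated NFAT factor, was at 37.2 and 42.3 CPM with DMSO and at 52.6 and 51.2 CPM with the inhibitor. Nfat5 was at 20.2 and 17.3 CPM with DMSO and at 27.5 and 25.1 CPM with the inhibitor. For both genes every inhibitor library lay above every DMSO library. Their log2 fold changes were 0.39 ± 0.09 for Nfatc3 (SE, edgeR adjusted p = 0.00196) and 0.49 ± 0.12 for Nfat5 (SE, edgeR adjusted p = 0.00401). Exons of Nfatc3 overlap those of Esrp2 over 1.87% of their length.

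The factors moved in opposite directions, and the makeup of the NFAT family shifted. Levels of different genes were compared as CPM per kilobase of annotated exon. On that scale Nfatc1 made up 92.6% and 92.8% of the summed level of the 4 NFAT members with DMSO, and 71.5% and 71.4% with BMS-582949. The share of Nfatc2 went from 1.21% and 1.39% to 11.2% and 11.997%, and that of Nfatc3 from 4.59% and 4.58% to 13.02% and 12.7%. Nfat5 took 1.59% and 1.19% with DMSO and 4.34% and 3.96% with the inhibitor. The summed level was 69.1 and 78.9 CPM per kilobase with DMSO and 34.4 CPM per kilobase in each inhibitor library. Because that sum fell along with Nfatc1, the shares of Nfatc2, Nfatc3 and Nfat5 rose by more than their levels did. Nfatc1 thus stayed the most abundant of the 4 in every library, at 76.5 and 66.6 times the Nfatc2 level per kilobase with DMSO and 6.40 and 5.95 times with BMS-582949. These shares and ratios do not depend on how libraries are scaled. With 2 libraries against 2, an exact two-sided permutation test cannot go below p = 0.33, so no test was made of them.

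**Figure D2:**
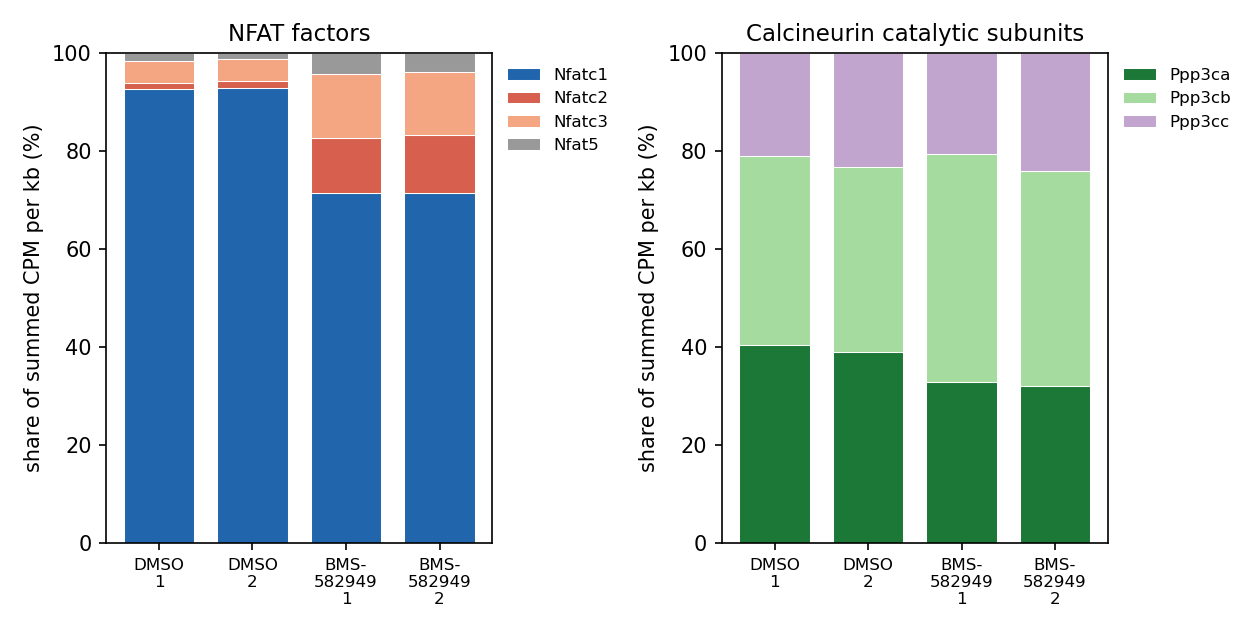
Share of the summed CPM per kilobase (%) taken by each NFAT factor (left) and each calcineurin catalytic subunit (right), 1 bar per library. Nfatc1 takes 92.6% and 92.8% of the NFAT level with DMSO and 71.5% and 71.4% with BMS-582949, and Ppp3cb takes a larger share of the catalytic subunits with the inhibitor.

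Nfatc4, the remaining calcium-regulated NFAT gene and not among the members, was low. It was at 3.80 and 4.31 CPM with DMSO and at 2.06 and 1.82 CPM with BMS-582949, with a log2 fold change of -1.06 ± 0.25 (SE, edgeR adjusted p = 0.00299).

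The calcineurin subunits changed little in total while the 2 main catalytic genes moved in opposite directions. Ppp3ca, which encodes the α catalytic subunit, was at 73.3 and 67.5 CPM with DMSO and at 54.9 and 61.8 CPM with BMS-582949. Ppp3cb, which encodes the β catalytic subunit, was at 61.9 and 57.4 CPM with DMSO and at 68.3 and 74.7 CPM with BMS-582949. In neither gene did the groups overlap, though the gaps between them were about as wide as the gaps within them. The log2 fold changes were -0.27 ± 0.08 for Ppp3ca (SE, 95% interval -0.45 to -0.10, edgeR adjusted p = 0.0103) and 0.26 ± 0.08 for Ppp3cb (SE, 95% interval 0.10 to 0.42, edgeR adjusted p = 0.00945).

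Neither of these calls held throughout. Scaled by library size only, Ppp3ca changed by 0.11 (adjusted p = 0.235), and it was not called without DMSO replicate 1 (-0.21, adjusted p = 0.0688) or without BMS-582949 replicate 1 (-0.19, adjusted p = 0.0694). Ppp3cb was not called without DMSO replicate 2 (0.21, adjusted p = 0.0681), without BMS-582949 replicate 2 (0.17, adjusted p = 0.0991) or with the trend on GC content and length removed (0.10, adjusted p = 0.206), all by edgeR. Per kilobase, Ppp3cb stood at 0.956 and 0.963 times Ppp3ca with DMSO and at 1.41 and 1.37 times with the inhibitor. The log2 fold change of Ppp3cb exceeded that of Ppp3ca by 0.53, a difference that was not tested. Scaling shifts both genes alike and leaves the difference as it is. Leaving out single libraries gave 0.51 to 0.56, and removing the trend on GC content and length gave 0.504.

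The third catalytic gene, Ppp3cc, was at 11.5 and 12.01 CPM with DMSO and at 10.3 and 13.9 CPM with BMS-582949. The inhibitor libraries lay on either side of the DMSO libraries, and the log2 fold change was 0.04 (95% interval -0.29 to 0.38, edgeR adjusted p = 0.831). With library size only Ppp3cc was called higher (0.42, edgeR adjusted p = 0.0278). Ppp3r1, the gene of the B subunit, was at 134 and 126 CPM with DMSO and at 116 and 121 CPM with BMS-582949. Its log2 fold change of -0.13 (95% interval -0.27 to 0.01) was not called (edgeR adjusted p = 0.0898), and library size scaling gave 0.25 (adjusted p = 0.00428). It was called lower with DESeq2 size factors (-0.16, adjusted p = 0.0488) and after correction for GC content and length (-0.22, adjusted p = 0.00336), both by edgeR. Exons of Ppp3r1 overlap those of Wdr92 over 14.3% of their length, and reads there could come from either gene.

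Summed per kilobase, the 3 catalytic genes gave 18.2 and 17.3 CPM with DMSO and 16.7 and 19.3 CPM with BMS-582949, ranges that overlap. Ppp3ca took 40.4% and 39.1% of that sum with DMSO and 32.9% and 32.0% with the inhibitor. Ppp3cb went from 38.6% and 37.7% to 46.4% and 43.9%, and Ppp3cc from 21.1% and 23.3% to 20.6% and 24.1%. Ppp3r1 stood at 2.28 and 2.25 times the catalytic sum with DMSO and at 2.16 and 1.94 times with BMS-582949. Ppp3r2, the B subunit gene known from testis, had no count in any library. Ppp3ca (ENSMUSG00000028161) lies on chromosome 3 at 136670124 to 136937727 and Ppp3cb (ENSMUSG00000021816) on chromosome 14 at 20499364 to 20546573.

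**Figure D3:**
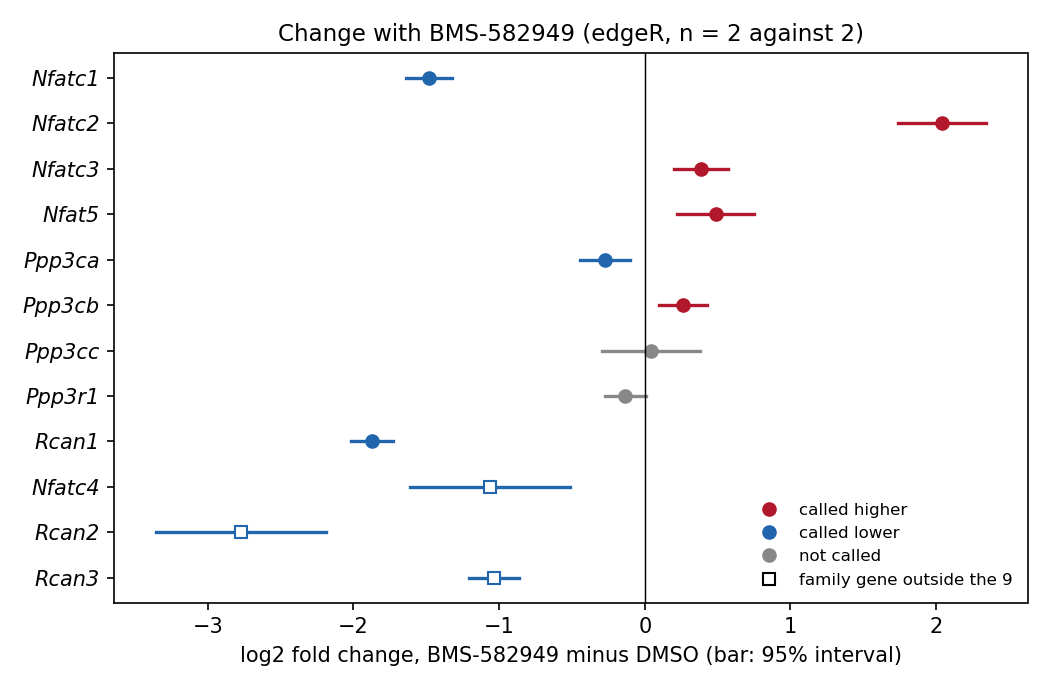
Log2 fold change (BMS-582949 minus DMSO, edgeR) of the 9 members (circles) and of 3 further family genes (squares), with 95% intervals. Nfatc1 and Rcan1 lie below -1 and Nfatc2 near 2, while the calcineurin subunits lie between -0.27 (Ppp3ca) and 0.26 (Ppp3cb).

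Rcan1 fell most among the members. Its level was 382 and 405 CPM with DMSO against 111 and 104 CPM with BMS-582949. The groups were far apart compared with the spread within them. The mean went from 394 ± 15.9 to 107 ± 4.72 CPM (SD, n = 2 each), 3.66-fold lower, with a log2 fold change of -1.87 ± 0.07 (SE, 95% interval -2.02 to -1.73, edgeR adjusted p = 2.82e-10). Of all tested genes 4.86% had a more negative value. Set against the summed catalytic subunits per kilobase, Rcan1 stood at 6.80 and 7.58 times with DMSO and at 2.15 and 1.75 times with BMS-582949. The paralogues Rcan2 and Rcan3, which encode related calcineurin-binding proteins, fell as well. Rcan3 went from 68.8 and 74.2 CPM to 36.0 and 33.8 CPM (log2 fold change -1.04 ± 0.08 SE, edgeR adjusted p = 2.16e-07). Rcan2 was scarce and went from 5.69 and 5.86 CPM to 0.951 and 0.733 CPM (-2.77 ± 0.27 SE, edgeR adjusted p = 1.95e-06). All 3 were also called lower when scaled by library size only.

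Rcan1 (ENSMUSG00000022951) lies on chromosome 16 at 92391953 to 92470867, minus strand. RefSeq places one start at 92466169, here called outer, and another at 92400078, here called inner, both inside the gene. A stretch just after the inner start was found in a GENCODE M21 Rcan1 transcript, and that after the outer start was not. The inner start gives the short form that is known as the NFAT-inducible one. Both windows are shown so that the inner one can be read beside the outer one. They are chr16:92400079-92400328 and chr16:92466170-92466419 (GRCm38.p6, RefSeq, minus strand, 5′ to 3′), and both lie in introns of longer Rcan1 transcripts. Capitals mark GGAAA on either strand and the AP-1 letters TGANTCA, which do not overlap here.
Rcan1, inner start: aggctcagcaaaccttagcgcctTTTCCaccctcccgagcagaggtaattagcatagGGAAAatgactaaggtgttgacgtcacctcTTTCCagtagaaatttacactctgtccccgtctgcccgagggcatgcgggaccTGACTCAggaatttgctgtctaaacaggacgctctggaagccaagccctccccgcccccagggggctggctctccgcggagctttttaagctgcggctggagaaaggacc
Rcan1, outer start: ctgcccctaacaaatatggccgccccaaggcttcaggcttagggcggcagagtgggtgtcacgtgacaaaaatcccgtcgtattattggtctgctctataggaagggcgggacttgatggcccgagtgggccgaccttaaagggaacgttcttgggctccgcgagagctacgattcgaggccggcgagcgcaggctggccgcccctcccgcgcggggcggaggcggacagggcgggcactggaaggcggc
The inner window held 3 GGAAA matches and 1 TGANTCA match, which begins 3′ of all of them. The outer window held neither. Of all 32851 windows, 6.75% held TGANTCA and 0.457% held at least 3 GGAAA together with at least 1 TGANTCA. These limits equal what the inner window itself holds, so the shares describe that window and are not a test. Here too a match is not evidence of binding. The counts are not split between the 7 transcripts annotated for Rcan1, so the fall was not assigned to a start site. Among the other members with a RefSeq window, Ppp3cb had 3 GGAAA matches, Nfat5 2, Nfatc3 1 in one of its 2 windows and Ppp3r1 none, and none held TGANTCA. For neither Nfatc3 window was the stretch after the start found in a GENCODE M21 Nfatc3 transcript.

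Ordered by level per kilobase in DMSO, Rcan1 (128 ± 5.17 CPM per kilobase, SD, n = 2) came first, then Nfatc1 (68.6 ± 6.53) and Ppp3r1 (40.3 ± 1.86). Ppp3ca (7.06 ± 0.414) and Ppp3cb (6.77 ± 0.361) followed, with overlapping libraries. Next were Ppp3cc (3.93 ± 0.132) and Nfatc3 (3.39 ± 0.311), and last Nfat5 (1.02 ± 0.112) and Nfatc2 (0.968 ± 0.186), which overlapped. With BMS-582949 the top 3 drew together, at 36.7 ± 0.940 for Ppp3r1, 34.8 ± 1.53 for Rcan1 and 24.6 ± 0.0262 for Nfatc1. Below them came Ppp3cb (8.12 ± 0.507) and Ppp3ca (5.84 ± 0.484), whose libraries did not overlap. Nfatc3 (4.43 ± 0.0821) and Nfatc2 (3.99 ± 0.202) both overlapped with Ppp3cc (4.05 ± 0.856), and Nfat5 (1.43 ± 0.0917) was lowest. Divided by the length of the longest transcript instead, Ppp3cb stood above Ppp3ca and Nfatc2 above Nfat5 in DMSO, with overlapping libraries in both pairs. On that length Nfatc3 stood above Ppp3cc in DMSO, and Rcan1 above Ppp3r1 and Nfatc2 above Ppp3cc with the inhibitor, without overlap.

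Genes around the route were taken from 8 lists of 76 genes in all, of which 72 were tested, 21 called higher and 34 lower (37 and 28 with library size only). These counts stand against 30.5% of all tested genes called higher and 29.7% lower. The calcium, inhibitor and kinase lists that follow lie near those shares or rest on few genes. Of the 34 genes called lower, 13 are the osteoclast targets of NFATc1 given below, a list that holds all the osteoclast markers. On the side that leads calcium to calcineurin, 5 of 12 genes rose and 4 fell (8 and 2 with library size only, where the median turned from -0.08 to 0.30). Itpr1, a calcium release channel of the endoplasmic reticulum, went from 2.44 and 3.49 CPM to 8.38 and 8.77 CPM, a log2 fold change of 1.53. Its relative Itpr3 went the other way, from 81.0 and 91.3 CPM to 32.7 and 28.5 CPM (-1.49). Stim2, a sensor of calcium in the store, rose by 1.22 and the phospholipase gene Plcg2 by 0.40. Plcg1 fell by 0.76, and Stim1 changed by -0.32 but by 0.06 with library size only. Without DMSO replicate 1, Stim1 was not called (edgeR adjusted p = 0.0552).

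Of 5 tested genes for inhibitors and anchors of calcineurin 1 rose and 2 fell (3 and 1 with library size only). Cabin1, an inhibitor of calcineurin, rose by 0.45, and Chp1, a calcineurin homologous protein, fell by 0.63. Fkbp1a, the immunophilin through which the drug FK506 acts on calcineurin, changed by -0.18 and by 0.20 with library size only. The Fkbp1a call ended under upper-quartile scaling, after the GC and length correction, and when either DMSO replicate 1 or BMS-582949 replicate 1 was left out. Of 11 tested genes for kinases that oppose calcineurin, nuclear export and other NFAT-binding proteins, 3 rose and 3 fell (8 and 2 with library size only, median from -0.11 to 0.27). Lrrk2, a kinase reported in the NRON complex that retains NFAT, rose by 1.38, and the nuclear exporter gene Xpo1 rose from 74.0 and 69.5 CPM to 147 and 146 CPM (1.03). Dyrk1b and Dyrk2, genes of the DYRK kinases that phosphorylate NFAT, fell by 1.296 and 1.13 while Dyrk1a rose by 0.30. The Dyrk1a call ended after the GC and length correction and when either DMSO replicate 2 or BMS-582949 replicate 1 was left out. Neither Gsk3a nor Gsk3b, genes of kinases that drive NFATc1 out of the nucleus, was called (-0.11 and -0.17).

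Among 15 tested genes for signals that induce Nfatc1, 9 fell and 4 rose, with a median of -0.34 (7 and 6 with library size only, where the median was 0.04). Jdp2, an AP-1 family gene, went from 803 and 827 CPM to 285 and 275 CPM (log2 fold change -1.54). Tyrobp, which encodes the ITAM adaptor DAP12, fell by 1.22 and Jund by 1.06, though exons of Jund overlap Gm11175 over 52.6% of their length. The risers included Creb1, which encodes the cAMP- and calcium-responsive factor CREB (1.19), Fos (0.82) and Junb (0.42). Of 8 genes for repressors of Nfatc1 or of its activity, 6 were called higher and none lower (8 and none with library size only), with a median of 0.76. Irf8, which encodes a myeloid transcription factor, rose by 1.17 and Rbpj, of the Notch pathway, by 1.09, while Id2 (0.22) and Zbtb7a (0.07) were not called.

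All 13 listed osteoclast targets of NFATc1 fell, also with library size only. Their log2 fold changes ran from -3.21 for Acp5 to -1.60 for Prdm1, named here after its value was seen, with a median of -2.96. Nfatc1 itself changed by -1.48. The list holds all 8 osteoclast markers counted above and is not independent of them. Of 5 genes known as osmotic targets of NFAT5, Slc38a2, an amino acid transporter gene, rose by 0.38 and the aldose reductase gene Akr1b3 by 0.20, and 3 were not called (4 rose with library size only). The Akr1b3 call ended after the GC and length correction and when BMS-582949 replicate 2 was left out.

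**Figure D4:**
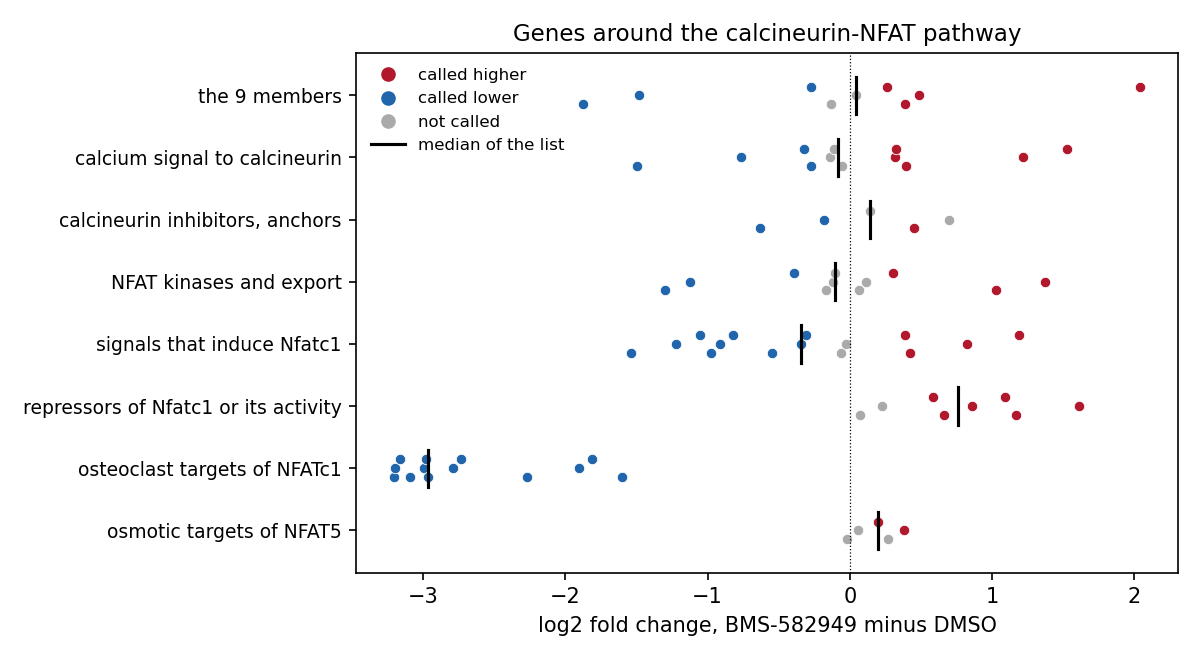
Log2 fold change (BMS-582949 minus DMSO) of each tested gene in the lists around the calcineurin-NFAT route, 1 point per gene (red called higher, blue called lower, grey not called) below a row for the 9 members, with each median as a black bar. The osteoclast targets of NFATc1 all lie below -1.5 and the repressors of Nfatc1 above 0, while lists on calcium and NFAT kinases spread to both sides of 0; their medians rise above 0 with library size only.

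Across the 4 libraries the genes whose pattern came closest to Nfatc1 were Insig1, a regulator of sterol synthesis (distance 0.0302), Slc11a2, an iron transporter gene (0.0304), and Adgre5, an adhesion receptor gene (0.0468). The distance is Euclidean, between log2 CPM values centred on each gene's mean, over 8414 genes with a mean of at least 10 CPM. Their log2 fold changes were -1.46 for Insig1, -1.46 for Slc11a2 and -1.52 for Adgre5. For Rcan1 the closest were Ttyh3 (0.0169) and the phospholipid acyltransferase gene Lpcat1 (0.0437), with changes of -1.88 and -1.84. With 4 libraries the likeness mostly reflects the size of the group difference.

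**Figure D5:**
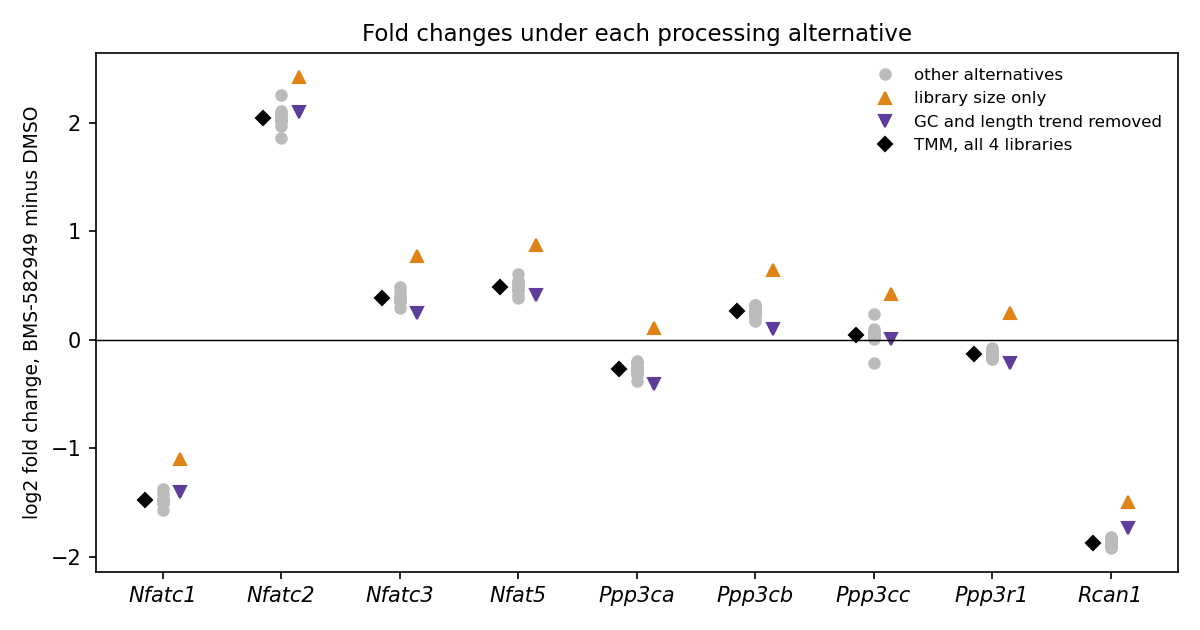
Log2 fold change of the 9 members with TMM scaling and all 4 libraries (black) and under 14 processing alternatives, with library size only (orange) and GC and length trend removed (purple) shown apart. Nfatc1, Nfatc2, Nfatc3, Nfat5 and Rcan1 keep their sign in each alternative, while Ppp3ca, Ppp3cc and Ppp3r1 cross 0.

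The fold changes of Nfatc1, Nfatc2 and Rcan1 were the least sensitive to processing relative to their size. Over 14 alternatives they ran from -1.57 to -1.10 for Nfatc1, from 1.86 to 2.42 for Nfatc2 and from -1.92 to -1.49 for Rcan1. The end nearest 0 for Nfatc1 and Rcan1, and the far end for Nfatc2, came from scaling by library size only, which moved the median of all genes from 0.03 to 0.41. Nfatc3 ran from 0.24 to 0.77 and Nfat5 from 0.38 to 0.87, and both were called at an adjusted p under 0.05 in each of these. Neither reached a log2 fold change of 1.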

How the data were processed

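RNA was sequenced from 4 mouse osteoclast cultures, 2 with DMSO and 2 with BMS-582949. The values deposited by the authors are whole-number counts, one per gene model and library. Tools named in the submitters' processing notes are HISAT2 2.0.4, Trimmomatic 0.36 and DESeq2 1.30.1, with the build GRCm38 and no roles given. How reads were counted (tool, annotation, strand) is not given in the sources used here. Symbols, coordinates and exon lengths came from GENCODE M21, also on GRCm38, and matched 22022 of 22036 Ensembl identifiers, and 1354 models named NewGene have none. Groups were taken from the treatment label, since the treatment protocol names the compound for all samples. The 2 libraries of each group were not copies of one another (chi-square divided by its degrees of freedom 9.62 with DMSO and 13.7 with BMS-582949).

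The whole count table went through edgeR 4.0.16 under R 4.3.3, with filterByExpr (minimum count 10), TMM, and the quasi-likelihood F test without covariates (2 residual degrees of freedom), with Benjamini-Hochberg adjustment over 13214 genes and a threshold of 0.05. The function was tested on simulated data in which far fewer genes changed than were called here. That simulation does not bear on the choice of scaling. Positive log2 fold changes mean higher with BMS-582949. Levels between genes are CPM per kilobase of the union of annotated exons.

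The members and lists were chosen with earlier results of these data known. Named genes are the 9 members, 4 family genes outside them, the called genes of each list with the largest changes (up to 3 each way, mean at least 1 CPM), uncalled list members where a list is described, and the 3 genes nearest in pattern to Nfatc1 and to Rcan1. A few genes that this rule names are not reported here. Alternatives were other scalings and filters, DESeq2 1.42.0, limma-voom (limma 3.58.1), a replicate block, each library left out, mitochondrially encoded genes left out, a loess correction for GC content and length (span 0.3), and stricter thresholds. Promoter windows are from RefSeq on GRCm38.p6, which had entries for 6 of the 9 members (not Nfatc1, Ppp3ca or Ppp3cc).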

Additional observations from a re-analysis of the deposited data

How the results depend on the processing

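Calls of Nfatc1, Nfatc2, Nfatc3, Nfat5 and Rcan1 held at an adjusted p under 0.05 in each of 14 alternative fits. Scaling by library size only gave 37 pathway genes called higher, 6738 of all genes higher and 2240 lower, and it turned the log2 fold changes of Ppp3ca (0.11), Ppp3r1 (0.25), Stim1 (0.0597) and Fkbp1a (0.20). Requiring a log2 change of at least 1 left 1 member higher (Nfatc2, not Nfatc3, Nfat5 or Ppp3cb), 8 pathway genes higher and 22 lower, and 1314 and 1499 of all genes. Ppp3cc ran from -0.21 to 0.24 when single libraries were left out, and library size only gave 0.42 (edgeR adjusted p = 0.0278, called higher). In those fits the lone library of a group is assumed to vary like the other group. The labels number the replicates, but deviations of same-numbered libraries did not go together (correlation across genes -0.0776), and with the replicate block 4 members were called higher and 3 lower, 21 pathway genes higher and 34 lower.

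Levels per kilobase of the longest transcript, with DMSO and then BMS-582949, were 107 and 38.3 for Nfatc1, 1.4996 and 6.18 for Nfatc2, 6.64 and 8.67 for Nfatc3, and 1.40 and 1.95 for Nfat5. They were 14.8 and 12.3 for Ppp3ca, 15.6 and 18.7 for Ppp3cb, 45.5 and 41.5 for Ppp3r1, 169 and 46.2 for Rcan1, and 4.70 with DMSO for Ppp3cc. Shares became 91.8% and 69.5% for Nfatc1, 42.2% and 34.3% for Ppp3ca, 44.4% and 52.2% for Ppp3cb, and 13.4% and 13.5% for Ppp3cc. Where these values differ from those per kilobase of all annotated exons, the length used is the cause. For the other changes, among them those between DMSO and BMS-582949, the cause was not tested. With 2 libraries a group and 2 residual degrees of freedom, small differences such as those of Ppp3cc and Ppp3r1 cannot be resolved further here.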
